A study of Homo sapiens with 16 samples.

Results

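Readthrough transcripts of ubiquitin and proteasome genes were followed in HEK293 cells. Genes were taken where the table of downstream-of-gene (DoG) transcript levels held a DoG and where the gene symbol, with no hyphen, began with UBE, FBX, KLHL, KBTBD, HECTD, HACE1 or HERC, or with UBA, USP, RNF, TRIM or CUL and a digit, or with PSMA to PSMG and a digit. The symbols selected 84 of the 3139 DoGs with a level. HEK293 is an established human embryonic kidney line, and all libraries came from this 1 line with the genotype WT. Cells were either left with no treatment (the control condition) or kept for 9 h in medium with 200 mM sorbitol and 100 µg/mL cycloheximide (the DoG-inducing condition, whose cells are called induced cells below). RNA of each condition was prepared in 4 ways, each with 2 biological replicates, which made 16 libraries in 8 groups. The conventional preparation is a phenol and chloroform extraction in which RNA is taken from the aqueous phase. hiAGPC is the improved extraction, which adds steps that release RNA held back by the conventional one. SERIPH splits a lysate into a 1st-step fraction, the aqueous phase, and a 2nd-step fraction, recovered from the washed interphase by heating and the improved extraction. The 2nd-step libraries were made from less RNA than the 1st-step libraries. With 2 libraries a group, p-values measure the spread between these libraries. For levels that spread is pooled over all 8 groups, so it is not that of the compared groups alone.

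Ubiquitin is a small protein that marks other proteins. An activating enzyme (E1) passes it to a conjugating enzyme (E2), and a ligase (E3) helps move it to the substrate. Deubiquitinases take it off again, and the proteasome degrades proteins that carry ubiquitin chains. A DoG is RNA made when RNA polymerase II does not stop at the end of a gene and goes on into the region downstream. It forms at many genes in cells under hyperosmotic or heat stress. Sorbitol raises the osmolarity of the medium, and cycloheximide blocks translation. A DoG lies outside the coding sequence, so its level is not the level of the enzyme named by the gene.

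The 84 genes were 1 E1, 13 E2 enzymes, 5 HECT ligases, 16 RING ligases of the RNF series, 5 TRIM ligases, 2 cullins, 10 F-box proteins, 7 BTB-Kelch proteins, 14 genes of the USP series, 9 proteasome genes, PSMC3IP and 1 gene outside these classes. Cullins, F-box and BTB-Kelch proteins are parts of multi-subunit RING ligases. UBA2, the only E1 here, activates SUMO and not ubiquitin. PSMC3IP is a recombination factor and no proteasome subunit, and USP39 is a splicing factor, so both are kept by their symbols alone. PSMC3IP and the gene outside these classes were set apart after their names were seen. The symbols come from GENCODE v44 on the build of the files, GRCh38, while the study used GENCODE v49.

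Of the 84 DoGs, 80 began within 1 kb of the annotated end of their gene. The 3′ end of most messenger RNAs is cut downstream of a short polyadenylation signal, most often AATAAA or ATTAAA. On the gene's strand, 65 of the 84 genes (77.4%) held AATAAA or ATTAAA in the last 50 bases before the DoG start, against 65.7% of all DoGs. AATAAA alone stood there in 50 genes (59.5%), against 52.1% of all DoGs. The 2 motifs were counted separately from each other and may overlap. Only the gene's strand was searched. The share was 52 of 62 (83.9%) for members listed in DoG-inducing libraries only, and 6 of 12 for members listed in control libraries only. Over all DoGs the same split gave 66.5% and 64.2%. A match is a sequence description and not a mapped cleavage site, and where the letters are not found only this window is described.

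The last 30 bases before the DoG start are shown for 7 members listed only in induced cells, because the results on level and length turn on them. Capitals mark AATAAA or ATTAAA. Coordinates are GRCh38. USP9X, RNF40, UBE2S and CUL3 were added to the set after their values were seen. The signal stands in the last 30 bases of those 4 genes and not in the last 30 bases of the other 3.
USP9X, chrX:41236550-41236579, plus strand: atatacaaaAATAAAactttataaattcaa
RNF40, chr16:30776278-30776307, plus strand: catacctAATAAAagtcggcatcaaaccac
UBE2S, chr19:55399745-55399774, minus strand: agtgcatAATAAAaataatatttgccctta
CUL3, chr2:224470150-224470179, minus strand: gtgggaaaATTAAAattctcagtctcagaa
USP11, chrX:47248299-47248328, plus strand: tgtatatataaagcaccagtctgctcccca
UBA2, chr19:34471222-34471251, plus strand: atttcaactaaattttaaatttctaattca
UBE2N, chr12:93405673-93405702, minus strand: ctgtcatctaccacctggactagtaatata

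The same 30 bases are shown for 8 members that were listed only in control libraries, because these are the exceptions to induction. FBXL4, HACE1, UBE2E2 and USP12 held a signal in this window, and UBE3A, RNF169, FBXL5 and UBE2E1 did not.
FBXL4, chr6:98868535-98868564, minus strand: agtAATAAAataagtttgagtatctcatta
HACE1, chr6:104728094-104728123, minus strand: gagatagatAATAAAatATTAAAtaactga
UBE2E2, chr3:23591765-23591794, plus strand: taaAATAAAttcaatatggtacaacactga
USP12, chr13:27066150-27066179, minus strand: tctATTAAAgttggtttatttgtgcctgtg
UBE3A, chr15:25333728-25333757, minus strand: gctacataaaccttgttctatgctgctgga
RNF169, chr11:74842384-74842413, plus strand: aatacagtaaaggaaactcatgaaagtgga
FBXL5, chr4:15604381-15604410, minus strand: cctaataagacagagaacttaattgataaa
UBE2E1, chr3:23891611-23891640, plus strand: ggataaattggtaccctgccttagggggca

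The first bases of a DoG follow directly. Cleavage regions often hold GU-rich stretches past the cut, and TGTGT was searched in the first 100 bases after the start on the gene's strand. It was found in 20 of 84 members (23.8%) and in 22.2% of all DoGs. The median GC content of the first 10 kb was 45.9% in members and 46.1% in all DoGs. It was 41.5% in the 12 control-only members and 46.8% in the 62 members listed only in induced cells, and over all DoGs the same split gave 42.0% and 47.0%.

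A DoG region was listed in a library where coverage ran on from the gene end for at least 10 kb. Of the 84 members, 62 (73.8%) were listed only in DoG-inducing libraries, 10 (11.9%) in both conditions and 12 (14.3%) only in control libraries. The same shares of all DoGs were 74.0% (2324 DoGs), 13.8% (434 DoGs) and, for control libraries only, 377 DoGs. Each of the 84 members had a region listed in at least 1 library (4 of the 3139 DoGs had none), so a member listed in 1 condition alone is high there partly by how the table was made.

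In the control condition the replicates listed 6 and 6 members in the conventional preparation, 5 and 5 in the 1st-step fraction, 11 and 8 in hiAGPC, and 15 and 17 in the 2nd-step fraction. In induced cells they listed 8 and 8, 5 and 6, 48 and 45, and 63 and 69 members in the same order. The number thus rose from a mean of 9.5 to 46.5 in hiAGPC and from 16 to 66 in the 2nd-step fraction, and the replicates did not overlap. The rise was shared by all DoGs. Their listed number went from 464 and 454 to 1578 and 1536 in hiAGPC, and from 661 and 639 to 2271 and 2373 in the 2nd-step fraction. In the aqueous preparations the mean number of members went from 6 to 8 in the conventional one and from 5 to 5.5 in the 1st-step fraction. The two-sided exact permutation p was 0.333 for every pair of groups compared but the 1st-step fraction between conditions, where it was 1. An exact test of 2 libraries against 2 cannot go below 0.333.

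In the 2nd-step fraction, 61 members (72.6%) were listed in both DoG-inducing replicates, against 64.0% of all DoGs. In hiAGPC it was 42 members (50%), against 44.3%. Of these, 40 were shared. Members listed in both replicates of the 2nd-step fraction and not in both of hiAGPC numbered 21, among them CUL9, KLHL3, PSMA4, PSMB7, PSMD12, USP7, USP22 and UBE2D2. TRIM37 and USP17L7 were listed in both hiAGPC replicates and not in both 2nd-step replicates. In induced cells 5 members, KBTBD2, RNF40, UBE2S and USP38 among them, were listed in both replicates of all 4 preparations. In the control condition UBE3A and USP25 were the 2 members so listed. No member was listed in all 16 libraries.

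Levels are given as FPKM, fragments per kilobase of the DoG region, scaled to the sequenced fragments of the library, as deposited with 2 decimals. FPKM is relative to the whole library, so more DoG RNA and less of the other RNA cannot be told apart in these bulk samples. The median FPKM of the 84 members was 0.11 to 0.16 in the 8 control libraries. In induced cells it was 0.15 and 0.125 in the conventional preparation and 0.135 and 0.14 in the 1st-step fraction. It was 0.665 and 0.635 in hiAGPC and 0.935 and 0.935 in the 2nd-step fraction. The aqueous preparations stayed near the control level, while both preparations that recover poorly extracted RNA stood above it in each replicate. All DoGs had medians of 0.58 and 0.58 in hiAGPC and 0.86 and 0.84 in the 2nd-step fraction in induced cells.

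**Figure D1:**
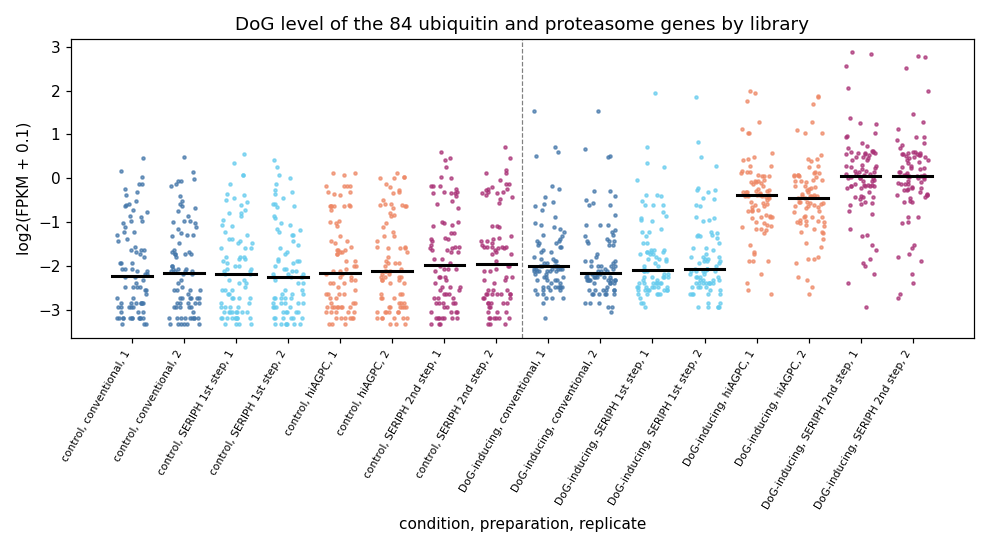
Level of each of the 84 DoGs in each library as log2(FPKM + 0.1), with libraries grouped by condition and coloured by preparation. Points are genes and black lines are medians. The 4 DoG-inducing hiAGPC and SERIPH 2nd-step libraries stand above the other 12.

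Differences between groups were tested with limma on log2(FPKM + 0.1) over all 3139 DoGs, and each fold change below is on that scale, which understates changes of low DoGs. A DoG was called where the Benjamini-Hochberg adjusted p was under 0.05 and the log2 fold change at least 1 in size. Between the conditions in hiAGPC, 56 members were called higher (70.2% of all DoGs were) and 7 lower (9.14% of all DoGs). In the 2nd-step fraction 60 were called higher (74.6% of all DoGs) and 8 lower (11.7% of all DoGs). In the conventional preparation 19 were called higher (22.2% of all DoGs) and 12 lower (11% of all DoGs). In the 1st-step fraction 15 were called higher (21.8% of all DoGs) and 8 lower (10.6% of all DoGs). The members' shares lay near those of all DoGs. The median log2 fold change of the members was 1.71 in hiAGPC, 2.11 in the 2nd-step fraction, 0.25 in the conventional preparation and 0.35 in the 1st-step fraction, and that of all DoGs was 1.86, 2.38, 0.44 and 0.43. Between 2 and 4 members a preparation were listed at 0 in both control libraries, and without them the members' medians were 1.66, 2.06, 0.23 and 0.28.

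The median of all DoGs moved with the condition. When each library was centred on its median DoG, that median came to -0.06 in hiAGPC, 0.13 in the 2nd-step fraction, -0.12 in the conventional preparation and -0.06 in the 1st-step fraction. Relative to the typical DoG, 14 members (13.9% of all DoGs) were then called higher and 25 (28.7% of all DoGs) lower in hiAGPC. In the 2nd-step fraction 18 (18.5% of all DoGs) were called higher and 27 (28.2% of all DoGs) lower. In the conventional preparation the counts were 4 (8.6% of all DoGs) and 20 (19.6% of all DoGs), and in the 1st-step fraction 6 (8.89% of all DoGs) and 18 (18.6% of all DoGs). Of the members called before centring, 20 of 63 in hiAGPC and 21 of 68 in the 2nd-step fraction changed sign, and none of 31 and 23 did in the aqueous preparations. Most calls of higher members thus turned on the shift that all DoGs shared. Not every member named as high below exceeded that shift with a call. After centring UBA2 and PSMA7 were not called in hiAGPC or the 2nd-step fraction, and UBE3C was called lower in both. USP11, USP9X, UBE2S and RNF40 stayed called higher after centring in hiAGPC and the 2nd-step fraction.

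The 56 members called higher in hiAGPC were all called higher in the 2nd-step fraction as well (69.6% of all DoGs were called higher in both). FBXO30, PSMC3IP, UBE2D1 and UBE3C were called higher in the 2nd-step fraction alone of the 2, and after centring FBXO30, PSMC3IP and UBE3C were called lower there instead. These comparisons use separate libraries, but by the study's methods the preparations of a condition came from the same samples. Their calls are therefore not independent. In all 4 preparations, 13 members (18.7% of all DoGs) were called higher, of which UBE2S and USP38 were the 2 so called after centring (4.52% of all DoGs). The 13 were FBXO10, FBXW5, KBTBD2, PSMB7, RNF114, RNF227, RNF40, TRIM41, UBE2S, UBE2V2, USP17L7, USP22 and USP38. FBXL4 and RNF169 were the 2 called lower in all 4 (6.05% of all DoGs), and after centring 17 were (16.8% of all DoGs). In neither hiAGPC nor the 2nd-step fraction were 14 members called.

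**Figure D2:**
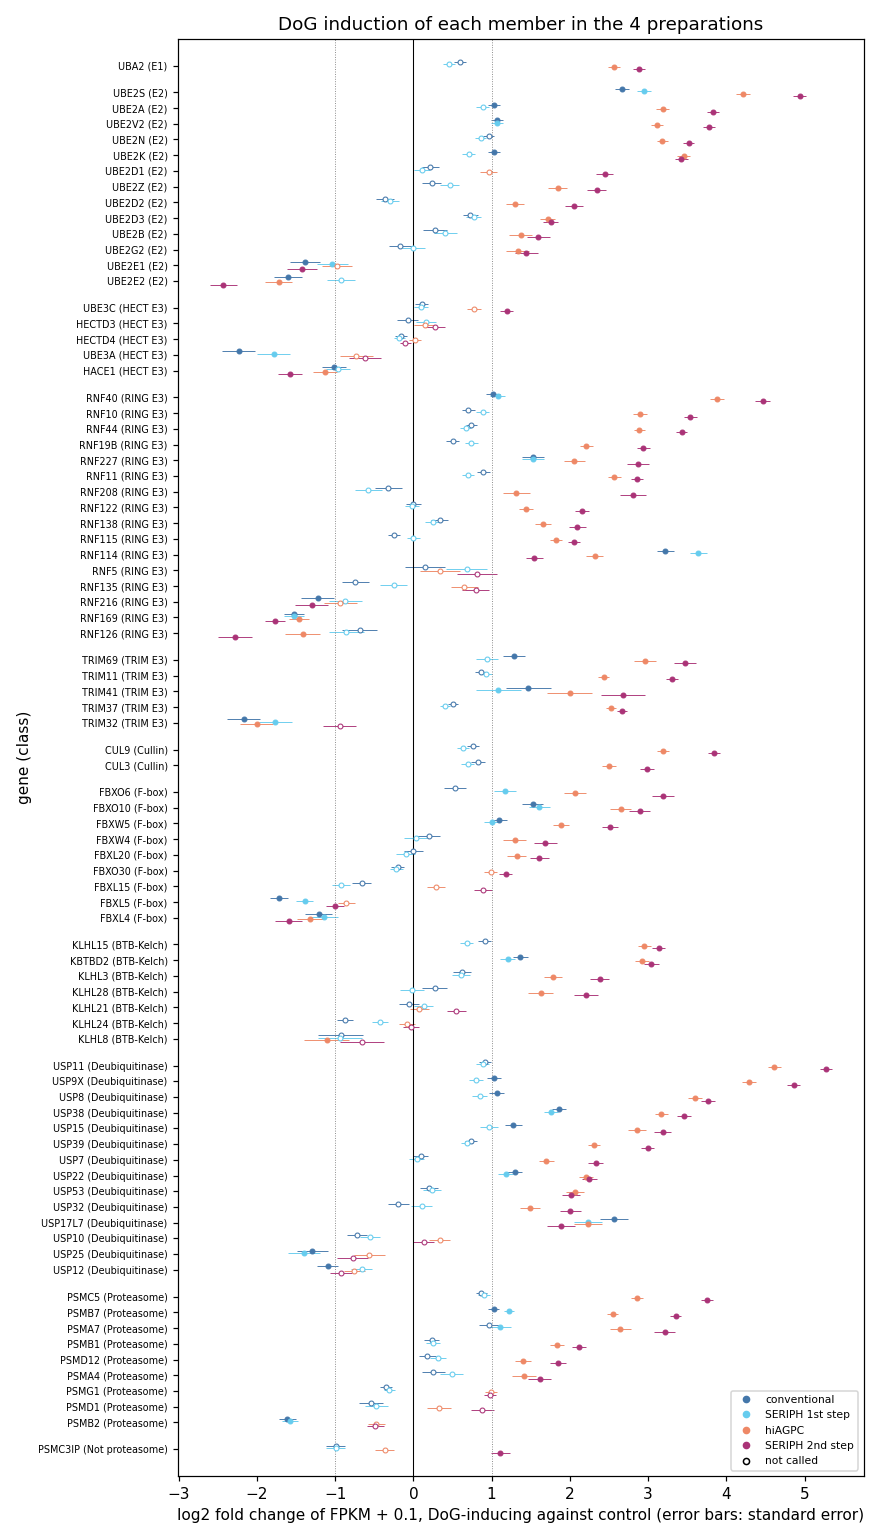
Log2 fold change of FPKM + 0.1 between the DoG-inducing and control conditions for 82 of the 84 genes, ordered by class, in the 4 preparations. Bars are limma standard errors, filled points were called and open points were not, and dotted lines mark a log2 fold change of 1 in either direction. Most genes lie to the right in hiAGPC and the 2nd-step fraction and near 0 in the aqueous preparations.

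UBA2, the SUMO-activating enzyme, is described first. It went from 0.06 and 0.06 to 0.85 and 0.84 FPKM in hiAGPC and from 0.09 and 0.11 to 1.42 and 1.34 in the 2nd-step fraction. In the conventional preparation it went from 0.04 and 0.05 to 0.13 and 0.11, and it was not called there. The UBA2 gene lies at chr19:34428352-34471251 on the plus strand, and its longest DoG region, of 205 kb, ran over WTIP.

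Of the 13 E2 enzymes, 11 were called higher and 2 lower in the 2nd-step fraction (74.6% and 11.7% of all DoGs). In hiAGPC, 10 were called higher and 1 lower (70.2% and 9.14% of all DoGs). After centring, 5 were called higher and 2 lower in both. The shares of all DoGs were then 18.5% and 28.2% in the 2nd-step fraction, and 13.9% and 28.7% in hiAGPC. UBE2S, an E2 of the anaphase-promoting complex, had the highest level of the class. Its control FPKM lay between 0.10 and 0.14 in all 8 libraries. In induced cells it was 1.32 and 1.33 in the conventional preparation, 1.54 and 1.66 in the 1st-step fraction, 3.85 and 3.55 in hiAGPC and 7.07 and 6.82 in the 2nd-step fraction. No DoG-inducing library overlapped the control libraries. The log2 fold change was 2.67 ± 0.09 (SE) in the conventional preparation, 4.21 ± 0.09 in hiAGPC and 4.94 ± 0.09 in the 2nd-step fraction, with adjusted p of 2.15e-10, 5.93e-13 and 1.01e-13. Its 35 kb region ran over IL11 and TMEM238 on the same strand, whose reads cannot be told apart from readthrough.

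UBE2N and UBE2V2 form one dimeric E2 for K63-linked chains. UBE2N was at 0.01 to 0.03 FPKM in the control libraries, and at 1.00 and 0.98 in hiAGPC and 1.37 and 1.41 in the 2nd-step fraction in induced cells. UBE2V2 was at 0 to 0.01 FPKM in control libraries, and at 0.85 and 0.85 and 1.39 and 1.42 in the same preparations. Both DoGs stood near 0.1 FPKM in the aqueous preparations in induced cells. UBE2K, which builds K48-linked chains, went from 0.06 and 0.06 to 1.64 and 1.60 FPKM in the 2nd-step fraction (log2 fold change 3.43 ± 0.08, adjusted p 6.37e-13).

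UBE2D1, UBE2D2 and UBE2D3 are close relatives that serve many ligases. UBE2D3 went from 0.54 and 0.57 to 2.08 and 2.03 FPKM in hiAGPC. The longest regions of UBE2D3 and UBE2D2 ran over the coding genes MANBA and CXXC5. UBE2D2 went from 0.20 and 0.19 to 0.66 and 0.59 in hiAGPC and from 0.27 and 0.24 to 1.39 and 1.36 in the 2nd-step fraction, and after centring these log2 changes were -0.62 and -0.19. A region starting at SMIM33, of 140 kb, ran into the UBE2D2 gene in both 2nd-step replicates in induced cells, so the 2 readthrough signals cannot be told apart there. UBE2D1 differed between preparations in the control condition, with 1.27 and 1.31 FPKM in the conventional preparation, 0.99 and 0.91 in hiAGPC and 0.25 and 0.26 in the 2nd-step fraction. Its longest region, of 140 kb, ran over TFAM, a gene of mitochondrial DNA maintenance. In induced cells UBE2D1 reached 1.95 and 1.94 in hiAGPC and 1.83 and 1.83 in the 2nd-step fraction.

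UBE2E1 and UBE2E2 went the other way. UBE2E2 was at 0.31 and 0.31 FPKM in the conventional preparation, 0.41 and 0.48 in hiAGPC and 0.69 and 0.81 in the 2nd-step fraction of control cells. In induced cells the 8 libraries lay between 0.03 and 0.09. It fell by 2.43 on the log2 scale in the 2nd-step fraction (SE 0.17, adjusted p 2.53e-08). UBE2E1 was at 1.24 and 0.98 in the 2nd-step fraction of control cells and at 0.30 and 0.40 in induced cells. Its change in hiAGPC, -0.98 on the log2 scale, was just short of the size required for a call.

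The 5 HECT ligases take ubiquitin onto themselves before the substrate. They held no member called higher in hiAGPC (70.2% of all DoGs) and 1, UBE3C, in the 2nd-step fraction (74.6% of all DoGs). HACE1 was called lower in both (9.14% and 11.7% of all DoGs). After centring all 5 were called lower in both preparations (28.7% and 28.2% of all DoGs). UBE3A, a ligase whose loss causes Angelman syndrome, was listed in all 8 control libraries and in no library of induced cells. UBE3A was at 0.92 and 0.85 FPKM in the conventional preparation, 0.56 and 0.96 in the 1st-step fraction, 0.78 and 0.81 in hiAGPC and 0.92 and 0.75 in the 2nd-step fraction of control cells. In induced cells UBE3A was at 0.09 and 0.13, 0.18 and 0.11, 0.44 and 0.44, and 0.58 and 0.44 in the same order. The induced libraries lay below the control libraries of the same preparation without overlap. The drop was called in the conventional preparation (log2 fold change -2.24 ± 0.21, adjusted p 1.14e-06) and the 1st-step fraction (-1.79 ± 0.21, adjusted p 8.46e-06). In the preparations with improved extraction the drop was -0.73 and -0.62, which was not called.

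The FPKM over the HECTD4 region was 0.98 and 0.98 in hiAGPC of control cells and 0.99 and 1.00 in induced cells. In the 2nd-step fraction it was 1.41 and 1.54 against 1.40 and 1.33. The region, of up to 90 kb, ran over NAA25 and was listed in no control library. Reads of NAA25 cannot be told apart from readthrough in these values. UBE3C went from 0.55 and 0.52 to 1.03 and 0.95 in hiAGPC and from 0.71 and 0.75 to 1.86 and 1.73 in the 2nd-step fraction. Its region of up to 205 kb ran over DNAJB6, which encodes a heat shock protein 40 family chaperone. HECTD3, whose region ran over EIF2B3 and was listed in induced cells only, was not called in any preparation between the conditions.

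Of the 16 RNF ligases, 11 were called higher in hiAGPC and 11 in the 2nd-step fraction (70.2% and 74.6% of all DoGs). Called lower were 2 and 3 (9.14% and 11.7% of all DoGs). After centring, 1 was called higher and 5 lower in hiAGPC (13.9% and 28.7% of all DoGs). In the 2nd-step fraction 3 were then called higher and 5 lower (18.5% and 28.2% of all DoGs). RNF40, which with RNF20 ubiquitinates histone H2B, had the highest level of the class in the 2nd-step fraction. RNF40 was at 0.13 to 0.22 FPKM in the control libraries. In induced cells RNF40 was at 0.39 and 0.38 in the conventional preparation, 0.43 and 0.44 in the 1st-step fraction, 3.77 and 3.53 in hiAGPC and 7.20 and 6.72 in the 2nd-step fraction. No group overlapped its control. Its region, of up to 120 kb, ran over MIR762HG and no annotated coding gene.

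RNF114 had the opposite order of preparations. It was at 0.17 to 0.27 FPKM in all control libraries. In induced cells it was at 3.72 and 3.53 in the 1st-step fraction, at 2.78 and 2.79 after conventional extraction, 1.39 and 1.34 in hiAGPC and 0.91 and 0.93 in the 2nd-step fraction. The log2 fold change was 3.64 ± 0.11 in the 1st-step fraction and 1.55 ± 0.11 in the 2nd-step fraction, with adjusted p of 1.1e-10 and 1.98e-08, and the latter was -0.70 after centring. The RNF114 region covers SNAI1, which encodes a transcription factor and lies on the same strand, and a region from RNF114 was listed in 1 library only. The part of SNAI1 reads in this value was not tested.

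RNF169, which binds ubiquitinated histones at DNA breaks, was listed in 7 of the 8 control libraries and in no DoG-inducing library. It was at 0.60 and 0.55 FPKM in the conventional preparation, 0.51 and 0.57 in the 1st-step fraction, 0.70 and 0.70 in hiAGPC and 0.91 and 0.87 in the 2nd-step fraction of control cells, and at 0.09 to 0.20 in induced cells. RNF169 fell by 1.52, 1.52, 1.46 and 1.77 on the log2 scale in that order. RNF126, a ligase in the quality control of membrane proteins, went from 0.71 and 0.73 to 0.09 and 0.05 FPKM in the 2nd-step fraction (log2 fold change -2.28, adjusted p 5.6e-07). RNF208 went from 0.05 and 0.07 to 1.11 and 0.93 in the 2nd-step fraction, with a region over TMEM203, and in the conventional preparation from 0.24 and 0.21 to 0.15 and 0.17.

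Among the 5 TRIM ligases, 4 were called higher in hiAGPC and in the 2nd-step fraction (70.2% and 74.6% of all DoGs). After centring 1 and 2 were (13.9% and 18.5% of all DoGs). TRIM11 went from 0.05 and 0.04 to 1.30 and 1.37 FPKM in the 2nd-step fraction. TRIM69 was listed at 0 in all 8 control libraries and stood at 0.71 and 0.65 in hiAGPC and 1.00 and 1.01 in the 2nd-step fraction in induced cells. The TRIM69 gene was itself entered by other readthrough regions, from B2M in both hiAGPC replicates and 1 2nd-step replicate, and from EIF3J, over 185 kb, in the other. B2M encodes the light chain of MHC class I. TRIM32 was the exception, with 0.81 and 1.01 FPKM in the conventional preparation of control cells and 0.15 and 0.10 in induced cells. TRIM32 fell by 2.17 on the log2 scale there and by 2.00 in hiAGPC.

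Both cullins, the scaffolds of multi-subunit ligases, were called higher in hiAGPC and in the 2nd-step fraction (70.2% and 74.6% of all DoGs). CUL3, the partner of BTB-Kelch proteins, went from 0.02 and 0.02 to 0.58 and 0.58 FPKM in hiAGPC and from 0.02 and 0.01 to 0.86 and 0.76 in the 2nd-step fraction. CUL9 went from 0.01 and 0.01 to 1.44 and 1.52 in the 2nd-step fraction and was listed at 0 in the other 6 control libraries. Its region ran over TTBK1. After centring CUL9 was called higher in both preparations (13.9% and 18.5% of all DoGs), and CUL3 in neither.

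F-box proteins are the substrate receptors of cullin ligases with CUL1. Of the 10, 7 were called higher and 2 lower in the 2nd-step fraction (74.6% and 11.7% of all DoGs). In hiAGPC, 6 were called higher and 1 lower (70.2% and 9.14% of all DoGs). After centring, 1 was called higher and 4 lower in the 2nd-step fraction (18.5% and 28.2% of all DoGs), and 0 and 3 in hiAGPC (13.9% and 28.7%). FBXL4 and FBXL5 went down. FBXL4, a mitochondrial F-box protein, went from 0.79 and 0.98 to 0.22 and 0.23 FPKM in the 2nd-step fraction. FBXL5, which senses iron, went from 0.41 and 0.41 to 0.05 and 0.06 in the conventional preparation and from 0.78 and 0.82 to 0.31 and 0.39 in the 2nd-step fraction.

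Of the 7 BTB-Kelch proteins, 4 were called higher in hiAGPC and in the 2nd-step fraction (70.2% and 74.6% of all DoGs). KLHL8 was called lower in hiAGPC (9.14% of all DoGs). After centring, 2 were called higher and 3 lower in hiAGPC (13.9% and 28.7% of all DoGs), and 0 and 3 in the 2nd-step fraction (18.5% and 28.2%). KBTBD2 went from 0.04 and 0.05 to 1.01 and 0.99 FPKM in hiAGPC and from 0.06 and 0.06 to 1.27 and 1.17 in the 2nd-step fraction. It rose in the aqueous preparations as well, from 0.04 and 0.05 to 0.30 and 0.25 in the conventional one. KLHL15 went from 0.04 and 0.04 to 1.14 and 1.12 in the 2nd-step fraction.

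Of the 14 USP genes, 11 were called higher in hiAGPC and in the 2nd-step fraction (70.2% and 74.6% of all DoGs). None was called lower in either (9.14% and 11.7% of all DoGs). After centring, 4 were called higher in each (13.9% and 18.5% of all DoGs) and 3 lower (28.7% and 28.2%). USP11 and USP9X are X-linked. USP11 had the largest log2 fold change of the 84 members in both preparations, and USP9X the next largest in hiAGPC, while UBE2S came between them in the 2nd-step fraction. USP11 was at 0.03 to 0.06 FPKM in the control libraries. In induced cells USP11 was at 0.15 and 0.14 in the conventional preparation, 0.14 and 0.14 in the 1st-step fraction, 3.30 and 3.11 in hiAGPC and 5.82 and 5.58 in the 2nd-step fraction. The log2 fold change of USP11 was 4.61 ± 0.08 in hiAGPC and 5.28 ± 0.08 in the 2nd-step fraction, with adjusted p of 2.84e-13 and 5.45e-14, and 0.91 ± 0.08 in the conventional preparation. USP11 lies at chrX:47232866-47248328 on the plus strand, and its region ran 311 kb downstream over ZNF157.

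USP9X was at 0.01 to 0.04 FPKM in the control libraries. In induced cells USP9X was at 0.14 and 0.11 in the conventional preparation, 0.09 and 0.11 in the 1st-step fraction, 2.35 and 2.34 in hiAGPC and 4.04 and 3.89 in the 2nd-step fraction. The log2 fold change of USP9X was 4.29 ± 0.09 in hiAGPC and 4.86 ± 0.09 in the 2nd-step fraction. Both genes thus had low DoG levels in the aqueous preparations and high levels in the other 2. USP8, which acts on endosomes, went from 0.01 and 0.01 to 1.25 and 1.22 FPKM in hiAGPC, and a 70 kb region from GABPB1-AS1 ran into the USP8 gene in both 2nd-step replicates in induced cells.

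USP17L7, of a multigene family of near-identical copies, was, like RNF114, higher in the aqueous preparations than in the other 2, with the conventional preparation above the 1st-step fraction. It was at 1.41 and 1.31 FPKM in the conventional preparation, 1.17 and 1.12 in the 1st-step fraction, 0.75 and 0.96 in hiAGPC and 0.47 and 0.44 in the 2nd-step fraction in induced cells, and at 0.04 to 0.19 in control libraries. Its 2nd-step change was -0.36 on the log2 scale after centring. Because reads were kept only where they mapped to 1 place, this value is uncertain. USP25 was listed in all 8 control libraries, with 1.09 and 1.04 FPKM in the 2nd-step fraction of control cells and 0.57 and 0.59 in induced cells. USP12 was at 0.69 and 0.62 FPKM in the 2nd-step fraction of control cells and at 0.35 and 0.25 in induced cells. USP10 was at 0.52 and 0.70 and at 0.76 and 0.59 in the same fraction, where the 2 conditions overlap.

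**Figure D3:**
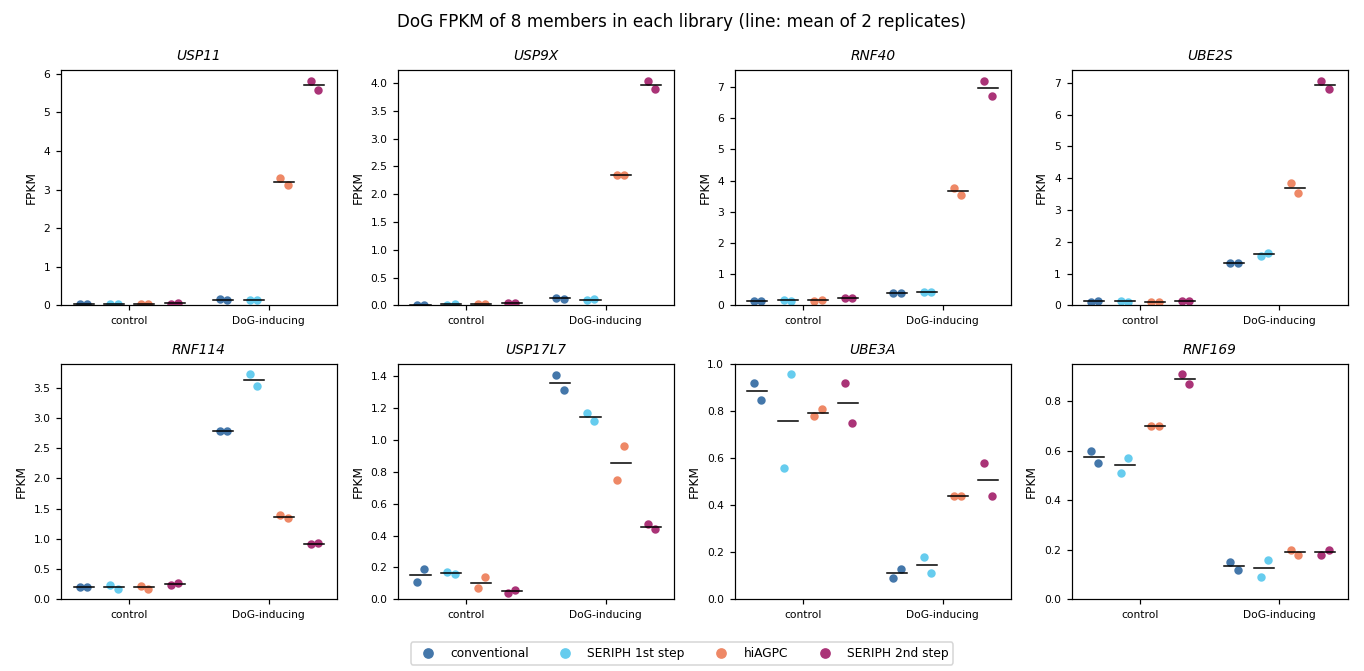
FPKM of 8 members in each library, with the control libraries on the left and the DoG-inducing libraries on the right of each panel, coloured by preparation, and with lines at the means of 2 replicates. USP11, USP9X, RNF40 and UBE2S are highest in the 2nd-step fraction, RNF114 and USP17L7 are highest in the aqueous preparations, and UBE3A and RNF169 are higher in control cells.

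Of the 9 proteasome genes, 6 were called higher in hiAGPC and in the 2nd-step fraction (70.2% and 74.6% of all DoGs). None was called lower in either (9.14% and 11.7% of all DoGs). After centring, none was called higher and 2 lower in hiAGPC (13.9% and 28.7% of all DoGs). In the 2nd-step fraction 2 were then called higher and 3 lower (18.5% and 28.2% of all DoGs). PSMA7, PSMA4, PSMB1, PSMB2 and PSMB7 encode subunits of the 20S core. PSMA7 had the highest level in induced cells, with 1.23 and 1.26 FPKM in hiAGPC and 2.25 and 2.09 in the 2nd-step fraction, against 0.12 and 0.11 and 0.14 and 0.15 in control cells. Its region, of up to 75 kb, ran over TAF4. PSMB7 went from 0.04 and 0.05 to 1.36 and 1.40 FPKM in the 2nd-step fraction and was called higher in all 4 preparations. PSMB1 went from 0.18 and 0.15 to 1.01 and 1.09 in the 2nd-step fraction, and PSMA4 from 0.22 and 0.23 to 0.95 and 0.84. After centring, the changes of PSMB1 and PSMA4 there were -0.13 and -0.64 on the log2 scale.

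PSMB2 was the exception in the core. PSMB2 was at 0.81 and 0.82 FPKM in the conventional preparation, 0.67 and 0.71 in the 1st-step fraction, 0.79 and 0.90 in hiAGPC and 1.28 and 1.28 in the 2nd-step fraction of control cells. In induced cells it was at 0.21 and 0.19, 0.15 and 0.18, 0.59 and 0.57, and 0.78 and 1.00. The PSMB2 DoG lay below control in every preparation and was called lower in the conventional preparation (log2 fold change -1.61 ± 0.11, adjusted p 6.97e-08) and the 1st-step fraction (-1.58 ± 0.11, adjusted p 8.27e-08). The change in hiAGPC was -0.47 and in the 2nd-step fraction -0.49, neither called. Its region was listed in 3 control and 4 DoG-inducing libraries.

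PSMC5 encodes an ATPase of the 19S cap, and PSMD1 and PSMD12 encode other subunits of it. PSMC5 went from 0.01 and 0.01 to 0.72 and 0.68 FPKM in hiAGPC and from 0.02 and 0.01 to 1.51 and 1.39 in the 2nd-step fraction (log2 fold change 3.75 ± 0.07, adjusted p 1.98e-13). PSMD12 went from 0.11 and 0.10 to 0.64 and 0.64 in the 2nd-step fraction, a log2 change that was -0.40 after centring. PSMD1 went from 0.37 and 0.25 to 0.59 and 0.71 in the 2nd-step fraction and was not called. PSMG1, a chaperone of core assembly, was at 0.22 and 0.24 and 0.56 and 0.55 in hiAGPC, and at 0.40 and 0.37 and 0.80 and 0.91 in the 2nd-step fraction. Its log2 fold changes of 0.99 and 0.98 were just under the size required. PSMC3IP, kept by its symbol, went from 0.28 and 0.29 to 0.71 and 0.75 in the 2nd-step fraction (-1.14 on the log2 scale after centring) and from 0.74 and 0.79 to 0.33 and 0.34 in the conventional preparation.

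**Figure D4:**
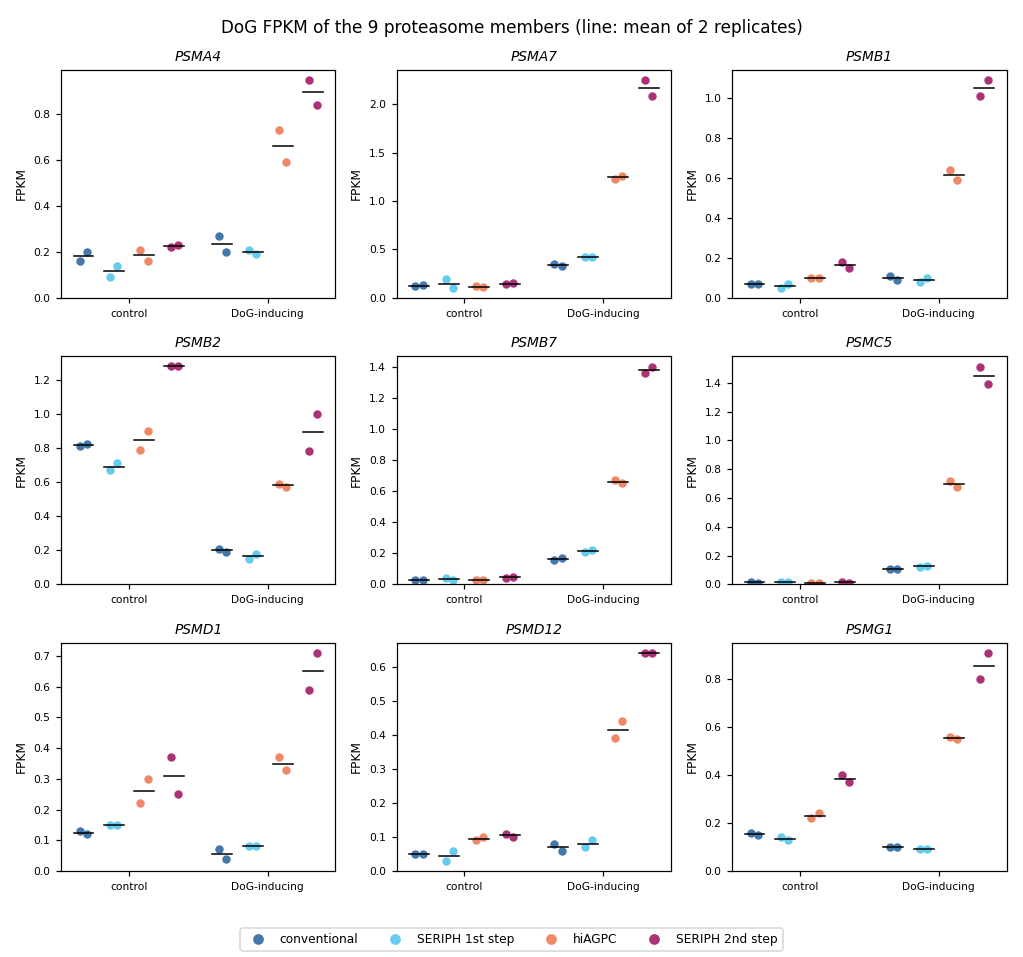
FPKM of the 9 proteasome genes in each library, coloured by preparation, with control libraries on the left and DoG-inducing libraries on the right of each panel and lines at the means of 2 replicates. PSMA7 reaches 2.25 FPKM in the 2nd-step fraction, and PSMB2 is lower in induced cells than in control cells in each preparation.

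Extraction was compared within each condition, to see which preparation recovered more of a DoG relative to its library. In induced cells most members were listed in hiAGPC or the 2nd-step fraction, and few in the aqueous preparations. Higher levels in hiAGPC and the 2nd-step fraction of induced cells are thus partly set by how the table was made. In induced cells, hiAGPC against the conventional preparation gave 60 members called higher (68.8% of all DoGs) and 0 lower (0.478% of all DoGs). Without the size limit, 3 members were lower at an adjusted p under 0.05, and 77 members differed in either direction at an unadjusted p under 0.05. The SERIPH 2nd-step fraction against the 1st-step fraction gave 67 members called higher (79.3% of all DoGs) and 3 lower (2.96% of all DoGs), the 3 being RNF114, RNF126 and USP17L7. All 9 proteasome genes were called higher in both comparisons, and after centring 0 were called higher and 0 lower in either. After centring, 5 members (3.54% of all DoGs) were called higher and 14 (16% of all DoGs) lower between hiAGPC and the conventional preparation. Between the SERIPH fractions 7 (6.72% of all DoGs) were called higher and 17 (20.4% of all DoGs) lower. Calls that changed sign numbered 17 of 60 and 26 of 70. RNF40, UBE2K, USP11, USP8 and USP9X were called higher after centring in both.

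The largest differences were those of USP11, 3.75 ± 0.08 on the log2 scale between hiAGPC and the conventional preparation and 4.59 ± 0.08 between the SERIPH fractions, with adjusted p of 2.28e-11 and 9.83e-13. USP9X followed with 3.45 ± 0.09 and 4.35 ± 0.09, and RNF40 with 2.95 ± 0.09 and 3.72 ± 0.09. RNF114 fell by 1.87 between the SERIPH fractions (SE 0.11, adjusted p 3.5e-09), RNF126 by 1.42 (SE 0.22, adjusted p 5.38e-05) and USP17L7 by 1.17 (SE 0.18, adjusted p 3.94e-05).

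The SERIPH 2nd-step fraction against hiAGPC, the 2 preparations with improved extraction, gave 2 members called higher (6.91% of all DoGs), FBXL20 and UBE2D2, and 0 lower (1.75% of all DoGs). Without the size limit, 62 members were higher and 2 lower at an adjusted p under 0.05. At an unadjusted p under 0.05, 66 members differed, and the median log2 difference was 0.50 in members and 0.52 in all DoGs. FBXL20 was at 0.45 and 0.40 FPKM in hiAGPC and 1.02 and 0.94 in the 2nd-step fraction. Its log2 difference of 1.04 lost the call without either of 2 libraries, the 2nd-step replicate 1 (0.99) and the hiAGPC replicate 2 (0.97). UBE2D2, with 1.03, lost it without the hiAGPC replicate 2 (0.96). After centring neither was called, with 0 members higher (0% of all DoGs) and 2 lower (3.7% of all DoGs), RNF114 and USP17L7.

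In control cells, hiAGPC against the conventional preparation gave 0 members called higher (1.08% of all DoGs) and 0 lower (0% of all DoGs) in limma. Without the size limit, 15 members were higher and 3 lower at an adjusted p under 0.05, and 28 had an unadjusted p under 0.05. The share of all DoGs was not counted without the size limit. After centring the counts called higher and lower were again 0 (0.86% and 0% of all DoGs). The SERIPH 2nd-step fraction against the 1st-step fraction gave 11 called higher (11% of all DoGs) and 5 lower (3.28% of all DoGs). USP12, USP10 and UBE2E2 led the members called higher, with log2 differences of 1.68 ± 0.14, 1.68 ± 0.13 and 1.45 ± 0.17. USP10, which removes ubiquitin from p53, was at 0.12 and 0.12 FPKM in the 1st-step fraction and 0.52 and 0.70 in the 2nd-step fraction. UBE2D1, PSMC3IP and RNF208 led those called lower, with log2 differences of -1.75 ± 0.11, -1.48 ± 0.12 and -1.46 ± 0.17. The 1st-step values of PSMC3IP were 1.17 and 0.81 FPKM, and the regions of UBE2D1, RNF208 and PSMC3IP ran over TFAM, TMEM203 and HSD17B1-AS1. After centring, 5 members (5.99% of all DoGs) were called higher and 8 (5.03% of all DoGs) lower.

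The SERIPH 2nd-step fraction against hiAGPC in control cells gave 1 member called higher (0.86% of all DoGs), USP10, and 3 lower (1.47% of all DoGs), UBE2D1 and TRIM32 among them. USP10 had a log2 difference of 1.03, and lost the call without replicate 2 of the 2nd-step fraction (0.85), without replicate 2 of hiAGPC (0.97) and after centring (0.88). TRIM32 was at 0.67 and 0.73 FPKM in hiAGPC and 0.32 and 0.21 in the 2nd-step fraction. TRIM32, with -1.15, lost the call without replicate 2 of the 2nd-step fraction (-0.93), and the count of members called lower fell to 1 without that library. The call of UBE2D1, at -1.56, held without any 1 library. After centring, 0 members (0.159% of all DoGs) were called higher and 3 (2.2% of all DoGs) lower.

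Whether the change with condition depended on extraction was tested as the difference between 2 changes. Most members are in the table with regions listed in induced hiAGPC or 2nd-step libraries. Positive differences are thus partly set by how the table was made. The change in hiAGPC minus that in the conventional preparation was called positive for 55 members (64% of all DoGs) and negative for 0 (0.733% of all DoGs), with 69 members at an unadjusted p under 0.05. The change in the 2nd-step fraction minus that in the 1st-step fraction was called positive for 63 members (72.9% of all DoGs) and negative for 3 (4.21% of all DoGs). After centring 6 (3.47% of all DoGs) were positive and 15 (17.3% of all DoGs) negative for hiAGPC, and 10 (9.27% of all DoGs) and 19 (22.4% of all DoGs) for the 2nd-step fraction. For USP11 the difference was 3.70 ± 0.11 between hiAGPC and the conventional preparation and 4.39 ± 0.11 between the SERIPH fractions. The 3 negative differences were those of RNF114 (-2.10), UBE2E2 (-1.51) and RNF126 (-1.42). RNF114 rose less in the 2nd-step fraction, and UBE2E2 and RNF126 lay further below control there. For UBE2E2 the control level was higher in the 2nd-step fraction (mean 0.75 FPKM) than in the 1st-step fraction (0.21), a log2 difference of 1.45. Its libraries of induced cells all lay below the 0.1 FPKM added before the logarithm. UBE3A was among the members with a positive difference, 1.51 ± 0.30 and 1.17 ± 0.30, as its drop was larger in the aqueous preparations, and the difference between the SERIPH fractions was -0.58 after centring.

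The length of a region was compared between the 2 preparations with improved extraction, for members listed in both replicates of both. In induced cells 40 members qualified. Their median length was 36.25 kb in hiAGPC and 85 kb in the 2nd-step fraction, with a median ratio of 1.47. For all 1287 DoGs that qualified, the medians were 35 and 62.5 kb and the median ratio was 1.36. The replicates did not overlap and the 2nd-step region was longer in 21 members (45.9% of all DoGs), and shorter in 3 (2.87% of all DoGs), PSMA7, FBXO30 and KBTBD2. In control cells 6 members qualified, with a median of 11.25 kb in both preparations. Only RNF169 was longer without overlap (27.9% of all DoGs), with 35 and 35 kb against 30 and 30 kb, and 0 were shorter (1.4% of all DoGs).

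UBA2 had the largest ratio, with 205 and 200 kb in the 2nd-step libraries against 10 and 10 kb in those of hiAGPC. UBE2V2 had 300 and 495 kb against 30 and 30 kb, and UBE2K had 200 and 195 kb against 30 and 20 kb. These 3 regions were longer in every 2nd-step library than in any hiAGPC library.

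UBE2N was long in both, with 465 and 455 kb against 365 and 385 kb. USP11, the member with the largest change in level, had the same length of 311.17 kb in all 4 libraries. This length is not a whole number of the steps seen in most regions, and what ended the region was not tested. KBTBD2 was shorter in the 2nd-step fraction, with 25 and 30 kb against 105 and 65 kb. USP9X, UBE2S and UBE2D3 had equal lengths of 95, 35 and 165 kb in all 4 libraries. Regions grow in windows, so small differences are of 1 step.

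**Figure D5:**
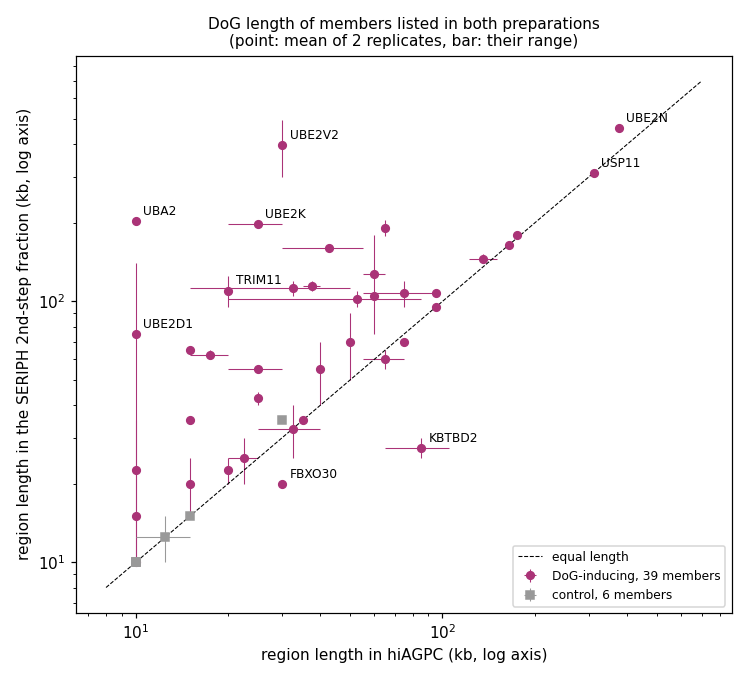
Region length in the 2nd-step fraction against hiAGPC, on log axes in kb, for members listed in both replicates of both preparations. Points are means of 2 replicates, bars their range, purple points 39 of the 40 members of induced cells and grey squares the 6 of the control condition, some of which coincide. UBA2, UBE2V2 and UBE2K lie far above the line of equal length and KBTBD2 below it.

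Of the 84 longest regions, 42 (50%) ran over another annotated gene on the same strand, against 41.4% of all DoGs, and 22 (26.2%) ran over a coding gene, against 20.7%. Reads of a gene under the region add to its FPKM. Among the 62 members with no coding gene under the region, 40 were called higher and 7 lower in hiAGPC and 42 and 8 in the 2nd-step fraction, with median log2 fold changes of 1.64 and 2.01. Among the 22 others, 16 and 18 were called higher and 0 lower, with medians of 1.77 and 2.39. Over all DoGs, 70.2% were called higher and 9.14% lower in hiAGPC, and 74.6% and 11.7% in the 2nd-step fraction. All members called lower in hiAGPC or the 2nd-step fraction were listed in control libraries only. Listing and level come from the same reads, so this is partly set by how the table was made. The effect of a gene under the region was not tested.

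Conversely, 6 of the 84 genes (7.14%) were entered by a DoG of an upstream gene on the same strand in at least 1 library, against 3.77% of all DoG genes. These were HECTD4 (from RPL6), RNF135 (from ADAP2 and ATAD5), TRIM69 (from B2M and EIF3J), UBE2D2 (from SMIM33), UBE2V2 (from MCM4) and USP8 (from GABPB1-AS1). Each of these entries was in a DoG-inducing library of hiAGPC or the 2nd-step fraction. The MCM4 region of 75 kb ran into UBE2V2 in both hiAGPC replicates.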

How the data were processed

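RNA of 16 libraries was depleted of ribosomal RNA and sequenced with a stranded kit. The authors trimmed reads with fastp 0.25.0, removed ribosomal reads with Bowtie2 2.5.4, aligned with STAR 2.7.11b to GRCh38, keeping reads that map to 1 place, and called DoGs with ARTDeco (minimum length 10 kb). The deposited table gives FPKM over 1 region a gene (for 97.6% of members the longest listed), rounded to 0.01, and the deposited region lists give positions, whose lengths were taken per library. The table holds no counts and the depth is unknown, so no counting error can be given. The study's differential tests used a count model, and limma on log2(FPKM + 0.1) was used here in its place.

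All 3139 DoGs and 16 libraries entered 1 fit (limma 3.58.1 with trend, R 4.3.3, no replicate block), with Benjamini-Hochberg adjustment over all DoGs. The fit was tested on simulated data. Genes named are those called with the 3 highest and 3 lowest changes of a comparison, all proteasome genes, the highest of each class, the longest regions, the largest and smallest length ratios, and control DoGs. Others were chosen after their values were seen. Members and lists were chosen with earlier results of these data known. Of 3139 identifiers, 3131 had a GENCODE v44 symbol. The preparations of a condition came from the same samples by the study's methods, so equal replicate numbers may pair libraries within a condition. Their replicate differences correlated from -0.0726 to 0.0571 there, and a replicate block was run as an alternative. Alternatives were other pseudocounts, a minimum FPKM, centring, a replicate block, fits of the compared groups alone, single libraries left out and a minimum length of 20 kb. Values of 2 members are not reported here by name.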

Additional observations from a re-analysis of the deposited data

Results flagged for a closer look

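The change with condition differed between preparations by limma's test of the difference itself. Most members were listed in induced hiAGPC or 2nd-step libraries, so positive differences are partly set by how the table was made. The change in hiAGPC minus the conventional change was called positive for 55 members (64% of all DoGs, and 6 members after centring), led by USP11 with 3.70, USP9X with 3.26 and RNF40 with 2.86 on the log2 scale. The 2nd-step change minus the 1st-step change was called positive for 63 members (72.9% of all DoGs, and 10 members after centring), led by USP11 with 4.39, USP9X with 4.06 and RNF40 with 3.39. It was called negative for 3 members (4.21% of all DoGs, and 19 members after centring), RNF114 with -2.10, UBE2E2 with -1.51 and RNF126 with -1.42. For RNF114 the region covers SNAI1, and the part of that gene in the value was not tested. For UBE2E2 the SERIPH fractions already differed by 1.45 on the log2 scale in control cells. Its libraries of induced cells all lay below the 0.1 FPKM added before the logarithm.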

How the results depend on the processing

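A pseudocount of 1 shrank low DoGs. The median log2 fold change of all DoGs between the conditions became 0.074 in the conventional preparation, 0.49 in hiAGPC, 0.076 in the 1st-step fraction and 0.74 in the 2nd-step fraction. With a pseudocount of 0.01 these medians were 0.99, 2.77, 0.90 and 3.24. The share of all DoGs called was not counted at either pseudocount. Between the conditions the pseudocount of 1 left 3 members called higher and 0 lower in the conventional preparation, 9 and 0 in hiAGPC, 2 and 0 in the SERIPH 1st-step fraction and 26 and 0 in the 2nd-step fraction. In control cells it left 0 and 0 between the SERIPH fractions and 0 and 0 between the 2nd-step fraction and hiAGPC. In induced cells it left 5 higher between hiAGPC and the conventional preparation, 17 and 1 between the SERIPH fractions, and 0 higher between the 2nd-step fraction and hiAGPC. For the differences between changes it left 4 higher in hiAGPC, and 18 higher and 1 lower in the 2nd-step fraction. With a pseudocount of 0.01, the counts became 36 higher in the conventional preparation, 11 lower in hiAGPC, and 35 higher and 17 lower in the 1st-step fraction. They became 3 higher between hiAGPC and the conventional preparation in control cells, 28 higher between the SERIPH fractions and 6 higher between the 2nd-step fraction and hiAGPC. In induced cells they became 2 lower between hiAGPC and the conventional preparation and 10 higher between the 2nd-step fraction and hiAGPC, and 1 lower for the difference between changes in hiAGPC.

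Centring each library on its median DoG gave the following counts of members called higher and lower. The shares of all DoGs stand beside the same counts in the Results. Between the conditions there were 4 and 20 in the conventional preparation, 14 and 25 in hiAGPC, 6 and 18 in the 1st-step fraction and 18 and 27 in the 2nd-step fraction. In control cells there were 5 and 8 between the SERIPH fractions and 0 higher between the 2nd-step fraction and hiAGPC. In induced cells there were 5 and 14 between hiAGPC and the conventional preparation, 7 and 17 between the SERIPH fractions, and 0 and 2 between the 2nd-step fraction and hiAGPC. The differences between changes gave 6 and 15 in hiAGPC, and 10 and 19 in the 2nd-step fraction. By construction, centring removes the shift shared by all DoGs. Between the conditions it turned the log2 fold change of UBE2D2 (-0.62), UBE2D3 (-0.20), PSMA4 (-0.50), PSMB1 (-0.080) and PSMD12 (-0.52) in hiAGPC. In the 2nd-step fraction it turned FBXO30 (-1.07), PSMC3IP (-1.14), UBE3C (-1.06), UBE2D2 (-0.19), RNF114 (-0.70), USP17L7 (-0.36), PSMA4 (-0.64), PSMB1 (-0.13) and PSMD12 (-0.40), the first 3 of them with a call. For UBE3A the difference between the changes of the SERIPH fractions became -0.58.

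The replicate block over all libraries, the replicate block within each condition (added after seeing the data), the fits of the compared groups alone and the minimum FPKM kept each count within 1.5 times of its value. At a minimum length of 20 kb, control libraries listed a mean of 0 members in the 1st-step fraction, 2.5 in the 2nd-step fraction, 0.5 in the conventional preparation and 1 in hiAGPC, while libraries of induced cells listed 1 and 2 in the 1st-step and conventional preparations. Listed in both replicates at that length were 0, 2, 0 and 1 members in control cells and 0 and 2 in those 2 preparations of induced cells. Counting members listed in either replicate gave 7 in the 1st-step fraction and 12 in hiAGPC of control cells. Leaving out single libraries gave 0 to 2 members called higher and 1 to 3 lower between the 2nd-step fraction and hiAGPC in control cells, 1 to 5 called higher between them in induced cells, 0 to 1 lower between hiAGPC and the conventional preparation in induced cells, and 0 to 1 negative for the difference between changes in hiAGPC. Single replicates listed 5 members in the 1st-step fraction and 8 to 11 in hiAGPC of control cells. Depth is unknown, and with 2 libraries a group and FPKM in steps of 0.01 the lowest DoGs are coarsely measured.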

Other observations

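A list of other genes of the pathway that the symbols do not select was described in the same fit. Of 170 genes, 51 had a DoG with a level. In hiAGPC, 28 of them were called higher and 7 lower between the conditions, when 70.2% and 9.14% of all DoGs were. The counts were 28 and 9 in the 2nd-step fraction (74.6% and 11.7% of all DoGs), 10 and 9 in the 1st-step fraction (21.8% and 10.6% of all DoGs) and 10 and 10 in the conventional preparation (22.2% and 11% of all DoGs). The median log2 fold changes were 1.21, 1.63, 0.10 and 0.11 in that order. After centring, 4 were called higher and 23 lower in hiAGPC (13.9% and 28.7% of all DoGs), and 8 and 25 in the 2nd-step fraction (18.5% and 28.2%). In the 1st-step fraction the counts were 3 and 15 (8.89% and 18.6% of all DoGs), and in the conventional preparation 2 and 14 (8.6% and 19.6%). VCP, the segregase that pulls ubiquitinated proteins apart, had a log2 fold change of 3.14 in hiAGPC and 3.36 in the 2nd-step fraction. UCHL1, a deubiquitinase abundant in neurons, had 3.46 and 4.02, and the ligase HUWE1 had 2.77 and 4.10. OTUD6B and UCHL5, both deubiquitinases, were called lower in both, with -2.23 and -2.21, and -2.15 and -2.49.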
